A study of Homo sapiens with 25 samples.

Results

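The 10 genes described here are JUN, JUNB, FOS, FOSL1, FOSL2, YAP1, TEAD1, CCN1, CCN2 and AMOTL2, of 19974 protein-coding genes on chromosomes 1 to 22 and X. They were taken as a named set of YAP and AP-1 genes and are called the members. Peaks were read where they overlapped each RefSeq gene span (hg38) extended by 50 kb on both sides, called the gene window below. All libraries are from HCT116 cells, a human line established from a colorectal carcinoma. The FOXD2 cells were transduced with a pSin lentivirus holding the full-length coding sequence of FOXD2, a forkhead transcription factor, and control cells with the same vector left empty; both were selected with puromycin. H3K4me1, H3K27ac and MLL4 had 2 peak lists from FOXD2 cells and 2 from control cells, and H3K4me3 had 1 from each. Tagged FOXD2 was mapped in HCT116 cells carrying the plasmid pcDNA3.1-FOXD2-3xflag-6xhis, with 2 lists for the 6xHis tag and 2 for FLAG, and no list from cells without the tags was analysed here. Neither separate cultures nor clones are described for the replicates, so SDs and p-values reflect how far these libraries differ, which may be technical variation.

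AP-1 is a dimer of basic leucine zipper proteins: JUN and JUNB pair with each other or with FOS, FOSL1 or FOSL2, and bind DNA at growth and stress response genes. YAP1 is the coactivator that the Hippo kinase cascade holds out of the nucleus, and TEAD1 is one of the DNA-binding proteins through which it acts. CCN1, CCN2 and AMOTL2 are targets of YAP and TEAD, and AMOTL2 also restrains YAP1. TEAD and AP-1 proteins are known to share many enhancers in epithelial tumour cells. H3K4me1 marks enhancers and the flanks of promoters, H3K27ac active enhancers and promoters, and H3K4me3 promoters; MLL4, encoded by KMT2D, is a methyltransferase that places H3K4me1 at enhancers.

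The promoters of the 4 members below are shown because JUN and CCN2 were the members called in H3K4me1, tagged FOXD2 lay at the start of YAP1, and JUNB held the forkhead motif. Each runs from 250 bases before to 50 bases after the gene start, 5′ to 3′ on the gene's strand, from RefSeq (GRCh38.p14). Capitals mark the letters of a motif found on either strand. The motifs searched were AP-1 (TGANTCA, in 7.71% of 35116 RefSeq promoters of this length), a cyclic AMP response element (TGACGTC, 3.45%), TEAD (GGAATG, 14.0%) and forkhead (TGTTTAC, 3.42%). None of the 4 lies within another.
JUN, chr1:58783998-58784297, minus strand: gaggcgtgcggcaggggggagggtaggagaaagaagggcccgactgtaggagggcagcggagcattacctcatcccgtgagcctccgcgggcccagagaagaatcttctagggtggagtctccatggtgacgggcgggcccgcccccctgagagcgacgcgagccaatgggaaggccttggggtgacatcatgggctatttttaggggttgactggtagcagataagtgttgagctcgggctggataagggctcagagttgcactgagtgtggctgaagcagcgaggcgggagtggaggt
CCN2, chr6:131951323-131951622, minus strand: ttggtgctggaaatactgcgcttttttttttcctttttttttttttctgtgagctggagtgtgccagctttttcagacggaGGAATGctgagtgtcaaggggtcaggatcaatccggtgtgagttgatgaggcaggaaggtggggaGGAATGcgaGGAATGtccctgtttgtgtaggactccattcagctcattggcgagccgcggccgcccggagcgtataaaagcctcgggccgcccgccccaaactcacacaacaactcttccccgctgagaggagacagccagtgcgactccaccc
YAP1, chr11:102110197-102110496, plus strand: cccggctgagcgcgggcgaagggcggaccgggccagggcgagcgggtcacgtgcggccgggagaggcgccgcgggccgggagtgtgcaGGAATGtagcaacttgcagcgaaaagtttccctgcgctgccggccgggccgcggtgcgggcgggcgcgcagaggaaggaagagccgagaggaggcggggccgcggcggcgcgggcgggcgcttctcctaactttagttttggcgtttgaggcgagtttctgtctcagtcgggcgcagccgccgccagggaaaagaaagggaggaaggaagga
JUNB, chr19:12791236-12791535, plus strand: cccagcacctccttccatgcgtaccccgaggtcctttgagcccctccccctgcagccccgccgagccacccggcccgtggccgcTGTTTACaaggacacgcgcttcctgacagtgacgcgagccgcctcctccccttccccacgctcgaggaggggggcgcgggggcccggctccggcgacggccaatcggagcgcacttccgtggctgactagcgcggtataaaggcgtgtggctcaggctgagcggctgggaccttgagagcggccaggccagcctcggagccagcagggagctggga
The CCN2 promoter held the TEAD letters 3 times, with first bases at -169, -104 and -95 from the gene start. The YAP1 promoter held them once, at -162, and the JUNB promoter held the forkhead letters at -166. Of the other promoters with an entry, FOSL2 held the AP-1 letters at 4 bases after its start and the second start of AMOTL2 held the TEAD letters at -69. The windows of JUN, FOS and the first start of AMOTL2 held none of these letters, and CCN1, FOSL1 and TEAD1 had no entry. A match is a match of letters and was not tested for binding.

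The H3K4me1 lists held 114893 and 129887 peaks in FOXD2 cells, against 101204 and 95756 in control cells, and covered 163.8 and 177.4 Mb against 146.3 and 121.3 Mb. The H3K27ac lists had 85122 and 141008 peaks in FOXD2 cells and 129995 and 85832 in control cells, so that list length differed more within groups than between them. The second MLL4 list of FOXD2 cells had 4676 peaks, against 22493 in the first and 16046 and 13571 in control cells. Read depth is unknown, and a list holds no signal outside its peaks. Levels are therefore given as covered length, the bases of a window under peaks of 1 list. A list also cannot tell a mark carried by more cells from more of the mark per cell. As a check of the cell type, H3K4me3 peaks lay in both lists over 5 of 8 colon epithelial markers (EPCAM, CDH1, KRT8, KRT18 and CDX2) but not over KRT20, VIL1 and LGALS4. They also lay over 3 of 4 fibroblast and endothelial markers (COL1A1, PECAM1 and CDH5, not COL1A2) and 2 of 4 neural ones.

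JUN, the founding AP-1 subunit, had the largest difference of the 10 members in both H3K4me1 and H3K27ac. Its window (chr1:58730791-58834047, with the gene at 58780791 to 58784047) contained no other protein-coding gene. H3K4me1 peaks covered 59.9 and 70.1 kb of it in FOXD2 cells, against 18.5 and 14.7 kb in control cells. Both FOXD2 lists lay far above both control lists, and the means were 65.0 ± 7.19 kb and 16.6 ± 2.70 kb (SD, n = 2 each), a 3.91-fold ratio. Peaks thus spanned 62.9% of the window in FOXD2 cells and 16.1% in control cells. On the log2(covered kb + 1) scale the difference was 1.91 (SE 0.21, limma adjusted p = 1.85e-16 over 18367 windows), and 0.49% of all windows tested had a higher one. JUN was called in each of the 13 alternative fits, with log2 differences from 1.57 to 2.19. Taken by itself, a comparison of 2 lists against 2 has 6 splits, and the two-sided exact permutation test gave p = 0.333, the smallest it can reach.

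Most of the added H3K4me1 length at JUN lay in regions that control cells also held. Merging the 4 lists gave 20 regions in the window, of which 7 were held by all 4 lists. Those 7 were covered over 43.6 and 48.5 kb in FOXD2 cells, against 18.5 and 14.1 kb in control cells. The widest peak measured 13094 and 15860 bp in the FOXD2 lists and 5652 and 4119 bp in the control lists. A further 8 regions were FOXD2-only, that is, present in 2 FOXD2 lists and 0 control lists, and no region was control-only, the reverse. These 8 added 13.9 and 16.2 kb. The strongest lay at chr1:58744005-58750109, 30.7 kb from the gene, with the authors' fold enrichment at 10.6 and 16.8, and at chr1:58771709-58776105, 4.7 kb from the gene, with 9.12 and 8.46. Merging regions up to 500 bp apart left 3 FOXD2-only regions at JUN. Dropping the first or the second FOXD2 list gave 11 and 15, where a peak in the remaining FOXD2 list was enough.

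Both flanks of JUN had more H3K4me1, and the gene body did not separate the groups. On the lower-coordinate side, which is downstream of this minus-strand gene, peaks covered 28.7 and 34.6 kb in FOXD2 cells against 5.91 and 4.55 kb in control cells. On the upstream side they covered 28.6 and 32.6 kb against 10.0 and 8.89 kb. The gene itself was covered over 2.51 and 2.80 kb in FOXD2 cells and 2.58 and 1.27 kb in control cells, so its values overlapped. In bins of 10 kb, coverage was higher in both FOXD2 lists than in both control lists in 10 of 10 bins within 50 kb of the start, and in 21 of 30 bins between 50 and 200 kb from it. No bin was lower in both FOXD2 lists. Bins around other genes were not counted, so these counts have no background share beside them. The H3K4me1 lists of FOXD2 cells also cover more bases in total. The median bin within 50 kb was 63.8% covered in FOXD2 cells and 19.1% in control cells.

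**Figure D1:**
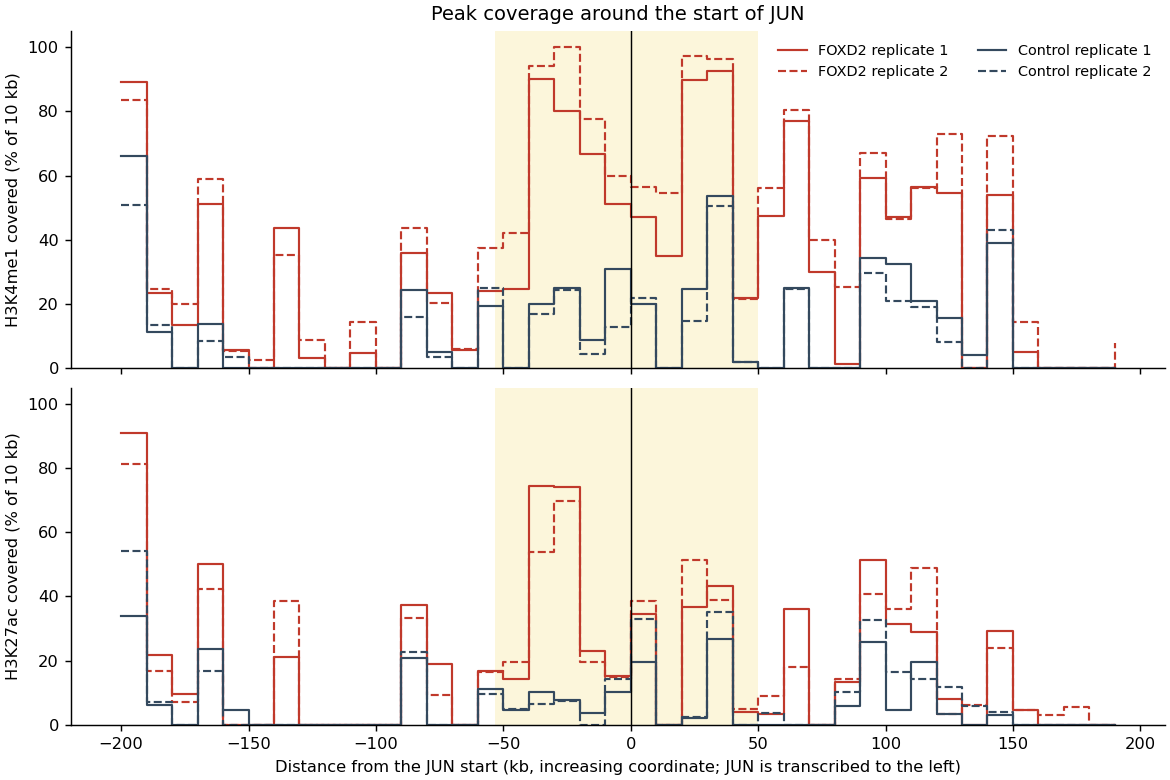
Percent of each 10-kb bin covered by H3K4me1 peaks (top) and H3K27ac peaks (bottom), by distance in kb from the JUN start, 1 line per list, with the gene window shaded. Within 50 kb of the start the FOXD2 lines lie above the control lines in 10 of 10 H3K4me1 bins and 9 of 10 H3K27ac bins. Bins around other genes were not counted.

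H3K27ac at JUN was also wider in FOXD2 cells. Its peaks covered 31.9 and 31.5 kb of the window in FOXD2 cells, against 8.5 and 10.35 kb in control cells, and the groups did not overlap. The means were 31.7 ± 0.33 kb and 9.43 ± 1.31 kb (SD, n = 2 each), a 3.36-fold ratio. In total the FOXD2 lists covered 111.26 and 170.85 Mb and the control lists 131.55 and 89.32 Mb. The log2 difference was 1.65 (SE 0.42), with an unadjusted p of 0.00601 and a limma adjusted p of 0.532 over 17773 windows, so it did not pass; it lay between 1.15 and 1.78 over the alternatives. Its size was exceeded by 0.67% of windows. With each list scaled to its total covered length, the log2 difference was 1.33. Of 21 regions, 8 were FOXD2-only and none control-only. The strongest, chr1:58759120-58765231, was 6112 bp wide with fold enrichments of 7.52 and 8.17, and the next were chr1:58819352-58820642 and chr1:58809564-58810984. The 5 regions held by all 4 lists were covered over 20.2 and 19.2 kb in FOXD2 cells and 8.12 and 10.3 kb in control cells.

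At the start of JUN, both groups held H3K4me3 and H3K27ac, and promoter and flanks were not compared by the same measure. The H3K4me3 peak over its start spanned 3941 bp in FOXD2 cells and 3750 bp in control cells. An H3K27ac region of all 4 lists, chr1:58782537-58787919, also lay there. The first control list of H3K27ac had peaks beside the start base but none over it. H3K4me1 regions of all 4 lists ended and began beside the start, at chr1:58779627-58784027 and chr1:58784469-58787335. An MLL4 region over the start, chr1:58783765-58784622, was control-only, with fold enrichments of 5.53 and 5.18. MLL4 covered 1.97 and 0 kb of the JUN window in FOXD2 cells and 1.59 and 1.36 kb in control cells, and its log2 difference was -0.52 (SE 0.73), not called. Without the short second FOXD2 list it was 0.26, and without the first, which leaves the short one, it was -1.30 and passed as lower (limma adjusted p = 0.0391). None of the 8 FOXD2-only H3K4me1 regions at JUN held an MLL4 region of any list. Nor did any of the 11 FOXD2-only or 10 control-only regions at the other 9 members. Of the H3K4me1 regions of all 4 lists, 3 of 7 at JUN and 50 of 109 at the other 9 members held one. At JUN those 7 were covered over 43.6 and 48.5 kb in FOXD2 cells, against 13.9 and 16.2 kb for the 8 FOXD2-only ones. The share of all H3K4me1 regions that held an MLL4 region was not counted.

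JUNB encodes another Jun protein, and its window also contains 8 other protein-coding genes, so its peaks cannot be assigned to JUNB alone. H3K4me1 covered 43.2 and 40.5 kb in FOXD2 cells, against 48.3 and 40.6 kb in control cells. The values overlapped and the log2 difference was -0.08 (SE 0.20, limma adjusted p = 0.861). H3K27ac covered 36.2 and 56.1 kb in FOXD2 cells and 41.0 and 26.5 kb in control cells, which also overlapped, as did the lengths of the lists. The whole gene lay under H3K27ac in each of the 4 lists.

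FOS is the classic immediate early AP-1 subunit. H3K4me1 covered 17.0 and 18.5 kb of its window in FOXD2 cells, against 19.8 and 16.2 kb in control cells. H3K27ac covered 21.3 and 25.3 kb in FOXD2 cells, against 28.0 and 24.4 kb in control cells. Both marks overlapped between groups, with log2 differences of -0.01 and -0.16. A pair of control-only H3K27ac regions lay at chr14:75310474-75311116 and chr14:75269160-75269880.

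FOSL1, a Fos protein often raised in carcinoma cells, shares its window with 10 other protein-coding genes. H3K4me1 covered 43.1 and 41.4 kb in FOXD2 cells and 45.3 and 37.6 kb in control cells. The log2 difference was 0.03 (SE 0.20). One FOXD2-only H3K4me1 region, chr11:65876100-65877689, lay 14.4 kb from the gene, with fold enrichments of 8.02 and 10.5.

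FOSL2, the remaining Fos protein of the set, had less H3K4me1 in both FOXD2 lists. Peaks covered 23.8 and 22.4 kb of its window in FOXD2 cells, against 34.1 and 27.2 kb in control cells. The groups did not overlap, but the log2 difference of -0.38 (SE 0.22) was not called (limma adjusted p = 0.223). It passed without the second control list (-0.54, adjusted p = 0.00565) and after scaling (-0.73, adjusted p = 0.000359). It shrank to -0.059 (adjusted p = 0.919) in windows of 20 kb, to -0.20 (adjusted p = 0.601) in windows of 100 kb and to -0.23 (adjusted p = 0.211) without the first control list. FOSL2 held 6 of the 10 control-only H3K4me1 regions found over all members, and 2 FOXD2-only ones. The strongest control-only regions, chr2:28355204-28356831 and chr2:28365975-28367334, lay 36.0 and 25.5 kb before the gene, and both overlapped H3K27ac regions of all 4 lists. Within the gene, H3K4me1 covered 8.27 and 6.84 kb in FOXD2 cells, against 12.6 and 9.45 kb in control cells. H3K27ac covered 32.3 and 48.0 kb in FOXD2 cells and 47.4 and 40.8 kb in control cells, which overlapped.

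YAP1 and TEAD1, the coactivator and its DNA-binding partner, have the widest windows of the set, at 223.0 and 370.3 kb. At YAP1, H3K4me1 covered 34.8 and 45.9 kb in FOXD2 cells, against 51.6 and 42.3 kb in control cells. At TEAD1 it covered 104.0 and 114.8 kb in FOXD2 cells, against 106.8 and 92.0 kb in control cells. Both overlapped, with log2 differences of -0.22 (SE 0.20) and 0.14 (SE 0.16). For H3K27ac, YAP1 had 15.5 and 14.3 kb in FOXD2 cells and 14.1 and 14.1 kb in control cells. TEAD1 had 47.4 and 43.9 kb of H3K27ac in FOXD2 cells and 37.5 and 39.6 kb in control cells. The H3K27ac values of both genes were higher in both FOXD2 lists, at log2 differences of 0.08 and 0.24 that were not called and that turned to -0.25 and -0.10 when each list was scaled to its total covered length. At TEAD1, 6 H3K27ac regions were FOXD2-only and 3 control-only, the strongest control-only one at chr11:12761639-12762121.

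Among the targets, CCN2, which encodes connective tissue growth factor, passed in H3K4me1. Peaks covered 8.92 and 11.8 kb of its window in FOXD2 cells, against 6.59 and 5.26 kb in control cells. Both FOXD2 lists were above both control lists, with means of 10.4 ± 2.06 and 5.92 ± 0.94 kb (SD, n = 2 each), a 1.75-fold ratio. The log2 difference was 0.71 (SE 0.24, limma adjusted p = 0.0168). That call was lost without the first FOXD2 list (0.90, adjusted p = 0.145), without the second (0.53, adjusted p = 0.721) and with scaling (0.40, adjusted p = 0.0556). The gene itself was covered over 3.03 and 2.58 kb in FOXD2 cells, against 1.66 and 1.37 kb in control cells. On its upstream side, peaks covered 4.78 and 7.49 kb against 3.28 and 2.82 kb. A region of all 4 lists, chr6:131948342-131955557, spanned gene and promoter. H3K27ac covered 3.38 and 2.72 kb of the window in FOXD2 cells and 1.57 and 0.64 kb in control cells, at a log2 difference of 0.97 (SE 0.37, limma adjusted p = 0.72) that did not pass.

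CCN1 encodes a matricellular protein of the same family, and its window also contains DDAH1. H3K4me1 covered 30.3 and 29.4 kb in FOXD2 cells, against 22.7 and 20.6 kb in control cells. The groups did not overlap, and the log2 difference of 0.45 (SE 0.22) was not called (limma adjusted p = 0.141), although it passed without the first control list (0.52, adjusted p = 0.00433). With scaling it was 0.11 (adjusted p = 0.52). The lower-coordinate side carried it, with 15.1 and 15.3 kb in FOXD2 cells against 7.60 and 6.51 kb in control cells. On the other side the values were 12.6 and 11.5 kb against 12.2 and 11.3 kb. No CCN1 region was FOXD2-only or control-only in H3K4me1; the regions of all 4 lists were covered over 27.6 and 27.6 kb in FOXD2 cells and 22.1 and 19.2 kb in control cells.

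AMOTL2, which encodes an angiomotin that binds YAP1, had 45.9 and 42.7 kb of H3K4me1 in FOXD2 cells, against 54.7 and 48.6 kb in control cells. The groups did not overlap, and the log2 difference of -0.22 (SE 0.20) was not called (limma adjusted p = 0.518). On the downstream side the values were 20.02 and 18.67 kb in FOXD2 cells and 28.39 and 26.97 kb in control cells. On the upstream side they ran the other way, with 8.54 and 8.83 kb against 6.53 and 5.73 kb. H3K27ac covered 31.7 and 39.0 kb of the window in FOXD2 cells and 34.5 and 30.8 kb in control cells, which overlapped.

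**Figure D2:**
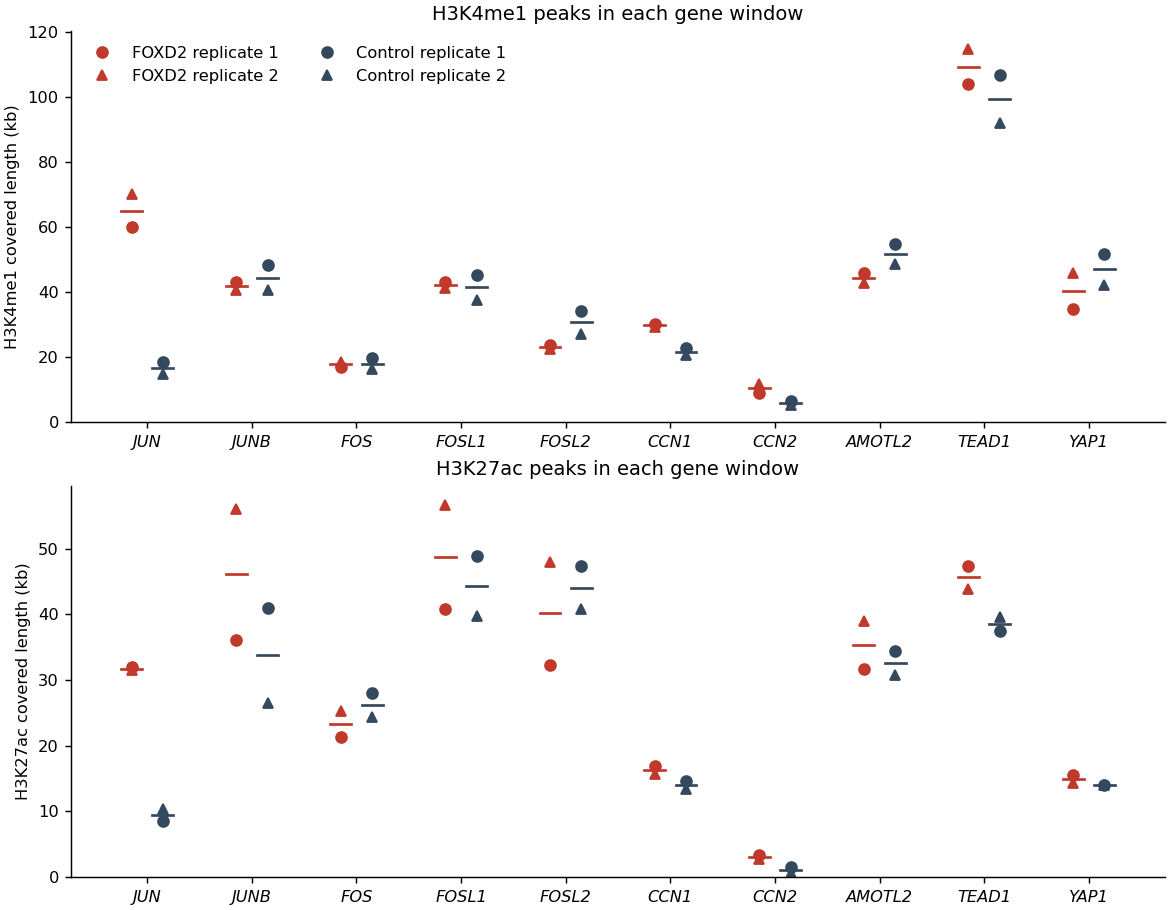
Covered length in kb of H3K4me1 (top) and H3K27ac (bottom) in the window of each gene, 1 point per list, with FOXD2 left of control and a bar at the mean of 2 lists. JUN is the gene whose FOXD2 and control points lie farthest apart in both marks, at 59.9 and 70.1 against 18.5 and 14.7 kb for H3K4me1.

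Set in order by the share of the window under H3K4me1, the members ran in FOXD2 cells from JUN (62.9%) through JUNB (41.1%), FOSL1 (38.9%), AMOTL2 (36.9%), TEAD1 (29.6%), CCN1 (28.9%), FOSL2 (18.6%), YAP1 (18.1%) and FOS (17.2%) to CCN2 (10.1%). In control cells JUN, at 16.1%, was above CCN2 alone (5.74%), while JUNB (43.6%) and AMOTL2 (43.0%) led. The step from JUN to JUNB in FOXD2 cells exceeded the spread between lists. Some neighbours further down, such as TEAD1 and CCN1 or FOSL2 and YAP1, did not differ beyond it. Other steps did exceed it, such as AMOTL2 to TEAD1, CCN1 to FOSL2 and FOS to CCN2.

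The 10 members were then read against all windows. H3K4me1 passed as higher in FOXD2 cells in 2 of 10 members, JUN and CCN2, and as lower in none, where 21.7% of 18367 windows passed as higher and 2.14% as lower. Covered length was higher in both FOXD2 lists at 3 members (JUN, CCN1 and CCN2), against 46.5% of windows, and lower in both at 2 members (FOSL2 and AMOTL2), against 8.97%. Peak number was higher in both FOXD2 lists at JUN, TEAD1 and YAP1, against 35.9% of windows, and lower at FOSL2, against 11% of them. The median log2 difference of the 10 members was 0.01, and that of all windows 0.20. For H3K27ac, 0 of 10 members and 0% of 17773 windows passed with limma in either direction; at an unadjusted p under 0.05 there were 1004 higher and 130 lower windows. JUN, CCN1, CCN2, TEAD1 and YAP1 were higher in both FOXD2 lists, against 27.9% of windows, and 0 members were lower, against 3.62%. Without the first FOXD2 list 9 members were higher, and 8 without the first control list. The median log2 difference of all windows was then 0.59 and 0.53, and their share without overlap was not counted. Peak number was higher at JUN, CCN1 and CCN2, against 10.8% of windows, and lower at AMOTL2, against 5.26%. The medians were 0.16 for the members and 0.28 for all windows.

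The H3K4me1 lists of FOXD2 cells cover more bases than those of control cells, which bears on these counts. With each list scaled to its total covered length, the median of all windows moved to -0.11. Of 18367 windows, 2892 then passed as higher and 4248 as lower, against 3986 and 393 unscaled. Of the 10 members, JUN then still passed as higher (1.57), and 6 passed as lower: FOSL2 (-0.73), YAP1 (-0.57), AMOTL2 (-0.56), JUNB (-0.43), FOS (-0.35) and FOSL1 (-0.31). The count of higher windows was 1139 and 504 without the first and second FOXD2 list, and 7892 without the first control list. That of lower windows was 93 and 60 without those FOXD2 lists and 1327 without the second control list. Windows overlap one another and the H3K4me1 fit took 1 common trend of spread for all of them, so its p-values may be too small.

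**Figure D3:**
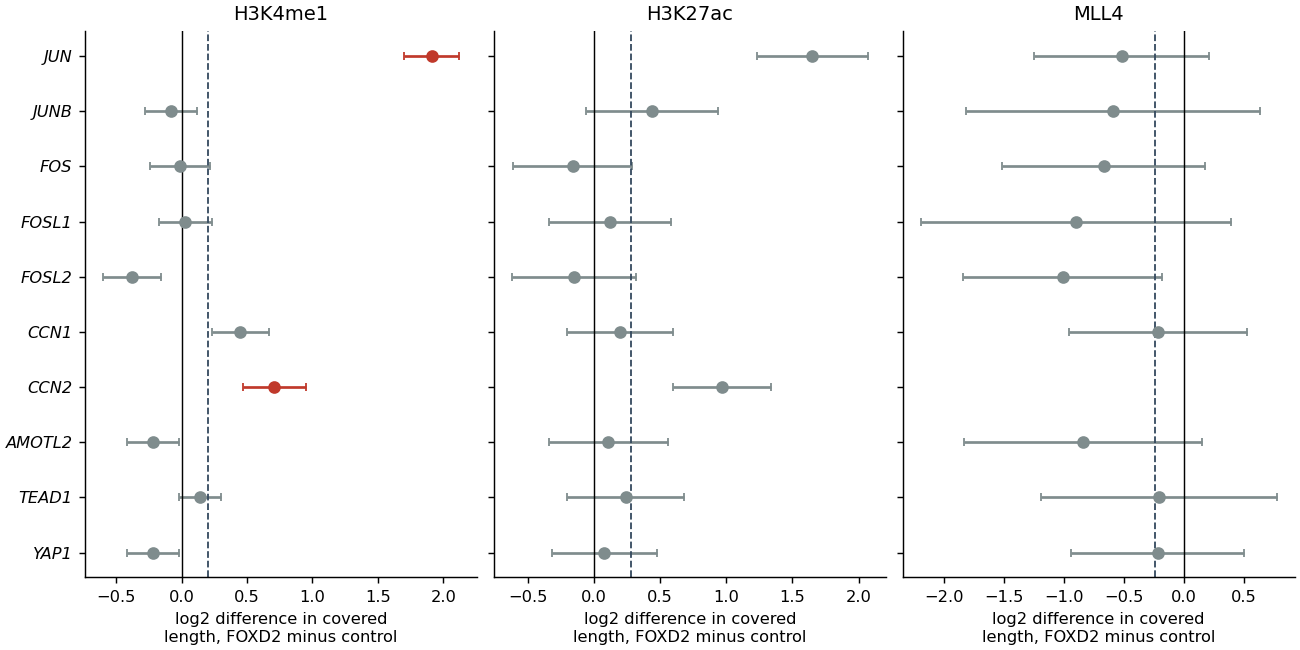
Log2 difference in covered length, FOXD2 minus control, for each gene and mark, with bars of 1 SE, the zero line solid and the median of all windows dashed. JUN (1.91) and CCN2 (0.71) in H3K4me1 are the red points, with adjusted p under 0.05; all others are grey, and CCN2 has no MLL4 point because it was not tested.

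Regions were counted over the same windows. The 10 windows held 216 H3K4me1 regions, of which 19 (8.8%) were FOXD2-only, against 14.2% of all 150847 regions, and 10 (4.63%) control-only, against 4.39%. JUN accounted for 8 of those 19; they made up 40% of its own regions, and the other 9 genes held the rest (5.61% of their regions). Regions of all 4 lists made up 53.7% in the member windows and 41.1% overall. For H3K27ac, 20 of 292 regions (6.85%) were FOXD2-only, against 5.25% of all regions, and 8 (2.74%) control-only, against 2.46%. JUN again accounted for 8, and the other 9 genes for 12 of 271 (4.43%). With regions up to 500 bp apart merged, JUN accounted for 3 of 13 FOXD2-only H3K4me1 regions and 7 of 18 H3K27ac ones. JUN was picked out here after its values were seen. Without the first FOXD2 list 47 H3K4me1 and 84 H3K27ac regions were FOXD2-only, 11 and 18 of them at JUN; without the second, 35 and 50 were, 15 and 13 of them at JUN. Control-only regions numbered 24 and 27 without the first control list and 28 and 35 without the second. H3K27ac had 20 without the second FOXD2 list. Leaving a list out loosens the rule, since fewer lists must hold or lack a peak. The share of all regions was not counted for these alternatives.

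MLL4 passed the test at none of these genes with all 4 lists, and its values depended on which FOXD2 list was used. In FOXD2 cells the first list had between 0 and 16 peaks per window and the second between 0 and 5. The second covered less than both control lists at each of the 9 members tested. JUNB had 8.66 and 0.55 kb in FOXD2 cells and 6.51 and 3.52 kb in control cells, and FOSL1 had 8.15 and 0.65 kb and 8.00 and 4.85 kb. With limma, 0 of the 9 members tested and 0% of 13411 windows passed in either direction; 33 higher and 235 lower windows had an unadjusted p under 0.05. Both FOXD2 lists were lower at FOSL2 (2.70 and 0 against 2.90 and 2.83 kb) and YAP1 (1.69 and 1.41 against 2.13 and 1.81 kb), against 17.9% of windows, and higher at 0 members, against 2.34%. JUN had fewer peaks in both FOXD2 lists, against 10.7% of windows, and 0 members had more, against 1.34%. Without the second FOXD2 list 4 members (JUN, JUNB, FOS and FOSL1) were above both control lists, and the median log2 difference of all windows was 0.24. Without the first, 9 members were below both control lists, and that median was -0.79. The share of all windows was not counted for either setting. The fit without the first list rests on the short FOXD2 list alone. Its log2 differences were -2.13 for FOSL1, -1.95 for FOSL2, -1.91 for JUNB, -1.54 for FOS and -1.47 for AMOTL2. They were -1.30 for JUN, -0.54 for TEAD1, -0.43 for CCN1 and -0.30 for YAP1. Regions held by all 4 MLL4 lists made up 15 of 94 (16.0%) in the member windows and 6.09% of all regions, also those far from genes. Of the 15, 4 lay at TEAD1, 3 at AMOTL2 and 2 each at CCN1, JUNB and YAP1. None of the 94 regions was FOXD2-only, against 1.12% of all MLL4 regions, and 5 (5.32%) were control-only, against 7.14%. They included chr2:28409061-28409804 in FOSL2 and chr19:12777700-12778588 near JUNB.

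H3K4me3, with 1 list per group and so no test, lay over every one of the 10 genes in both lists. JUN had 6.98 kb in its window in FOXD2 cells and 6.61 kb in control cells, CCN2 1.66 and 1.40 kb, and FOSL2 5.25 and 6.34 kb. No member passed 1.5-fold, where 1.24% of windows were higher and 3.81% lower by that much. TEAD1 came nearest, at 7.18 kb in FOXD2 cells and 10.7 kb in control cells (0.67-fold), and the other 9 lay between 0.83 and 1.19, around a median of 0.96 over all windows. The promoter peaks themselves had fold enrichments, by the authors, from 56.2 to 117 in FOXD2 cells and from 78.9 to 148 in control cells.

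Tagged FOXD2 lay at 4 of the 10 genes by the strict rule of a tag site, for which each of the 4 tag lists had to contribute to 1 merged region. YAP1 had 2 such sites, on either side of its start, at chr11:102109080-102110350 and chr11:102111379-102112939. The first overlaps the promoter printed above, and 3 of the 4 tag lists had a peak overlapping those 300 bases by at least 1 base. TEAD1 had 4 sites inside the gene, at chr11:12693044-12694684, chr11:12723755-12725330, chr11:12725685-12727473 and chr11:12798613-12799471. FOSL1 had 1, at chr11:65902800-65904600, 2.3 kb from the gene, and JUNB had 1, at chr19:12830715-12832395, within RTBDN. These 8 sites were among 5399 in all, and 28.6% of all windows held one, as did 21.5% of the 10044 windows no wider than that of FOSL2 (124.5 kb) and 36.2% of those at least as wide as that of YAP1. By those shares, 4 of 10 is close to the background. With 3 lists enough for a site, 8 members had one, against 47.8% of windows.

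JUN had no site of all 4 lists. It had 3 and 3 peaks in the 6xHis lists and 2 and 2 in the FLAG lists, and 2 regions were held by 3 lists, at chr1:58769648-58770174 and chr1:58779701-58780323, the second 0.5 kb past the end of the gene. Of its 8 FOXD2-only H3K4me1 regions, 1 held a tag peak of any list, as did 4 of its 7 regions of all 4 lists, which are wider. None of the 8 FOXD2-only H3K27ac regions did. At the other 9 members the counts were 2 of 11 FOXD2-only H3K4me1 regions and 0 of 12 H3K27ac ones. FOSL2 had 1 tag peak in 1 list. At CCN2, 1 FLAG list had a peak that overlapped the promoter printed above. The tagged protein was mapped in other cells than the histone marks, and with no list from untagged cells, peaks of the antibodies alone cannot be told apart from those of FOXD2.

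**Figure D4:**
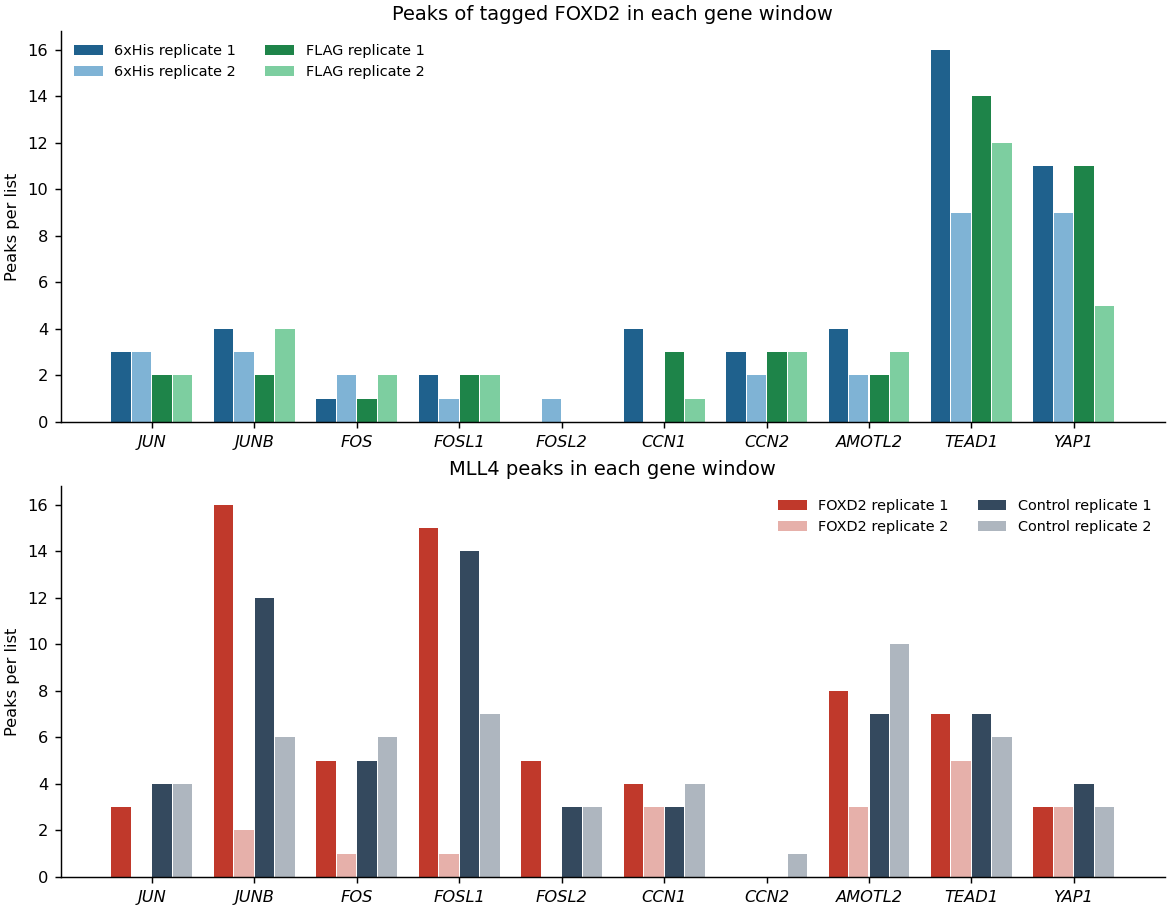
Peaks per list in the window of each gene, for tagged FOXD2 (top, 4 lists) and MLL4 (bottom, FOXD2 left of control, 4 lists); windows differ in width, with TEAD1 (370.3 kb) and YAP1 (223.0 kb) the widest. TEAD1 has 9 to 16 tag peaks per list and FOSL2 0 or 1, and the second FOXD2 list of MLL4 has at most 5 peaks at any gene.

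The rest of the pathway was read from 4 lists of genes. Of 20 other YAP, TAZ and TEAD targets, 4 passed as higher in H3K4me1 and 0 as lower, near the 21.7% of all windows, with a median log2 difference of 0.21. F3, which encodes tissue factor, had 24.2 and 26.0 kb in FOXD2 cells and 12.7 and 9.20 kb in control cells (1.14, SE 0.23). ASAP1 (0.71), AMOTL1 (0.77) and DOCK5 (0.76) were the others. Of 18 Hippo pathway genes, 6 passed as higher and 0 as lower, with a median of 0.28. Among them were both kinases at the head of the cascade. STK3 had 69.6 and 81.9 kb in FOXD2 cells against 36.9 and 30.3 kb in control cells (1.15, SE 0.20), and STK4 had 25.1 and 34.8 kb against 17.9 and 15.3 kb (0.80, SE 0.23). VGLL4, which competes with YAP1 for TEAD, had 57.0 and 74.2 kb against 32.7 and 29.2 kb (1.05, SE 0.20), and AMOT, an angiomotin, had 3.50 and 5.80 kb against 1.70 and 0.80 kb (1.32, SE 0.25). WWC1 and LATS1 were the remaining ones. Of 12 other AP-1 family genes, BATF alone passed, with 9.30 and 8.4 kb in FOXD2 cells against 5.5 and 4.4 kb in control cells (0.74, SE 0.24), and the median was 0.03. None of 14 immediate early genes passed, at a median of 0.02. No gene of these lists passed in H3K27ac or MLL4 in either direction.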

How the data were processed

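The authors deposited 1 narrowPeak list for each of 18 libraries, in hg38. MACS2 2.2.7.1, Bowtie2 2.3.4.1, bedtools, Picard and cutadapt 3.4 are listed in the submitters' processing notes. Per the labels' protocols, histone marks came from native chromatin cut with MNase, and MLL4 and the tags from crosslinked, sonicated chromatin. Each deposited peak carries a score, a fold enrichment as a ratio, and a p-value and q-value as −log10, which served here for description, ranking and filtering inside each list. The background library and read depth are not given in the sources used here, so no interval or floor for depth can be given. The 7 inputs are not used. Some peak names carry another replicate number than the labels, which were followed.

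Peaks outside chromosomes 1 to 22 and X, between 1 and 35 per list, were dropped. Covered length per window was compared with limma 3.58.1 (R 4.3.3) on log2(covered kb + 1), trend fitted, for windows with a peak in at least 2 of the 4 lists, with Benjamini-Hochberg adjustment over all of them and a threshold of 0.05. Merging used a gap of 0 bp. Steps were tested on simulated data. Python 3.11.15, numpy 2.4.6, pandas 2.3.3 and matplotlib 3.10.9 were used. No 2 lists of a group shared more than 35 identical peaks. The 10 members, the lists, the motifs and the tests were chosen with earlier results of these data known. All members are named, up to 4 called genes per list, and the 3 strongest regions per mark and class by rank of −log10 q; other regions were named after their values were seen. The alternatives were scaling, equal list lengths, −log10 q of 5 or more, windows of 20 and 100 kb, counting whole peaks at least 50% inside, a pseudocount of 0.2 kb, no filter, each list left out and a replicate block. The result of 1 further marker list, for blood cells, is not reported here.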

Additional observations from a re-analysis of the deposited data

How the results depend on the processing

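Depth is unknown, and with 2 lists per group each left-out list moves the counts; the cause of the shifts below was not tested. JUN in H3K4me1 kept its call under all 13 alternatives.

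The fit with the replicate number as a block called 2953 H3K4me1 windows as higher and 276 as lower, which lost CCN2 (adjusted p = 0.0656) and changed no other H3K4me1 call of a member. For H3K27ac the replicate block called 10 higher and 3 lower windows, and for MLL4 0 and 0. Same-numbered lists deviated together with r = 0.139 for H3K4me1 and 0.257 for MLL4 over windows, and with -0.655 for H3K27ac; nothing in the labels pairs them. Crossing the H3K27ac numbers, chosen after seeing the data, called 4547 windows as higher, 3 of the 10 members (JUN, JUNB and CCN2) among them, and 336 as lower.

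With lists left out in turn, H3K4me1 windows called numbered 504 to 7892 higher and 60 to 1327 lower, H3K27ac windows 10 to 132 higher and 11 to 101 lower, and MLL4 windows 0 to 391 higher and 0 to 3093 lower. Members without overlap numbered 3 to 6 higher and 2 to 6 lower in H3K4me1, 5 to 9 and 0 to 2 in H3K27ac, and 0 to 4 and 2 to 9 in MLL4. The share of all windows without overlap was not counted for any of the alternatives, nor was the share of all regions that were FOXD2-only or control-only. FOXD2-only regions in the member windows numbered 22 to 47 for H3K4me1, 27 to 84 for H3K27ac and 0 to 22 for MLL4, and control-only regions 12 to 28, 12 to 35 and 5 to 22.

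Lower H3K4me1 windows numbered 642 at equal list length and 4248 with scaling, and members without overlap that were lower 7 with scaling and 1 in windows of 20 kb. For H3K27ac, scaling gave 3 members higher and 3 lower, and equal list length and windows of 20 kb gave 1 lower each. For MLL4, equal list length gave 1 member higher, −log10 q of 5 or more gave 5 lower, and windows of 20 kb gave 1 lower. At −log10 q of 5 or more, FOXD2-only H3K27ac regions numbered 13, control-only MLL4 regions 10, and 1 member (TEAD1, 0.65-fold) passed 1.5-fold in H3K4me3. A merging gap of 500 bp left 3 control-only MLL4 regions. Members with a tag region held by at least 3 lists numbered 8 (47.8% of all windows), and by at least 2 lists 9 (65.9%).

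Differences of single members that turned sign follow. Of the turned values, FOSL1 in H3K4me1 with scaling passed the threshold. With scaling, H3K4me1 gave -0.31 for FOSL1 and -0.21 for TEAD1; H3K27ac gave -0.23 for AMOTL2, -0.12 for CCN1, -0.21 for FOSL1, -0.10 for TEAD1 and -0.25 for YAP1; MLL4 gave 0.26 for CCN1, 0.33 for TEAD1 and 0.30 for YAP1. Equal list length gave -0.028 for YAP1 in H3K27ac, and 0.018 for CCN1 and 0.55 for TEAD1 in MLL4. FOS in H3K4me1 was 0.21 in windows of 100 kb. With lists left out in turn, H3K4me1 ran from -0.20 to 0.044 for JUNB, -0.15 to 0.12 for FOS and -0.097 to 0.16 for FOSL1, and H3K27ac from -0.11 to 0.36 for FOSL1, -0.43 to 0.13 for FOSL2 and -0.037 to 0.25 for AMOTL2. MLL4 ran from -1.30 to 0.26 for JUN, -1.91 to 0.73 for JUNB, -1.54 to 0.20 for FOS, -2.13 to 0.34 for FOSL1 and -0.54 to 0.12 for TEAD1; the lowest values of JUN, JUNB, FOS and FOSL1, without the first FOXD2 list, passed as lower.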
